A study of Mus musculus with 12 samples.

Results

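The nuclear-encoded subunits of the mitochondrial respiratory chain were examined in RNA from mouse cortex. The members are 77 genes with symbols of the Nduf, Uqcr, Cox and Atp5 families and a mean CPM (counts scaled to library size) of at least 1 over 12 libraries. They were taken from 87 genes with such names, in a table of 27179 genes. By name, 38 belong to complex I, 8 to complex III, 14 to complex IV and 17 to complex V. Every one of the 77 also passed the low-count filter that left 15298 genes for testing. The 12 libraries form 3 groups of 4. Wild-type mice (Grn+/+, WT) kept the mouse progranulin gene and were 287 to 375 days old. Knockout mice (Grn-/-, KO) lacked it and were 282 to 308 days old. The humanized mutant mice (Grn-/-; GRNmEx5, MUT) lacked mouse Grn as well, carried the allele GRNmEx5 of a pathogenic GRN deletion, and were 272 to 309 days old. Neither the strain nor the promoter of the human allele is given in the sources used here. Loss of Grn and the humanized allele are what the comparisons address; progranulin is a secreted protein that reaches lysosomes, and its loss causes frontotemporal dementia in people.

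The respiratory chain sits in the inner mitochondrial membrane. Complex I takes electrons from NADH, complex III passes them to cytochrome c, and complex IV hands them to oxygen, and all 3 of these complexes pump protons whose return through complex V, the ATP synthase, drives ATP formation. Most subunits are encoded in the nucleus, made in the cytosol and imported, while a small set is encoded in mitochondrial DNA. Neurons of the cortex rely heavily on this machinery to pay for synaptic transmission and ion pumping.

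Each library held 16381221 to 20782195 counts. The subunit genes took 0.849% ± 0.00462 of the counts in WT, 0.905% ± 0.0301 in KO and 0.878% ± 0.0321 in MUT (mean ± SD, n = 4 each). Grn fell in both null groups, from 58 ± 1.35 CPM in WT to 12.8 ± 1.38 CPM in KO and 13.5 ± 1.59 CPM in MUT (edgeR adjusted p = 4.78e-08 and 6.73e-08). The mutant libraries also held less Hprt transcript than either other group. Its log2 fold change was -3.178 against WT and -3.205 against KO (edgeR adjusted p = 1.48e-09 and 7.19e-10). The part of Hprt in the subunit values was not tested. Sex-linked transcripts ran against the sex labels: Xist gave 9390 to 12900 counts in the 6 libraries labelled male and at most 19 in those labelled female, and Ddx3y at most 4 and at least 1156. Both codings split the libraries alike, so the sex term of the model does not depend on which is right. Markers of striatal neurons were high in WT replicates 2, 3 and 4, the only animals aged 375 days, and those of choroid plexus in KO replicate 3, MUT replicate 1 and WT replicate 4. In bulk tissue, fewer cells of a type and less RNA per cell cannot be told apart. Excitatory cortical neuron markers, which define the labelled tissue, summed to 2070 to 2600 CPM over all libraries, with none of the 8 at 0.

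Subunit transcripts were among the steadier ones of the cortex. The coefficient of variation over the 12 libraries had a median of 5.31% for the subunit genes and 9.52% for all tested genes, which are also less abundant (median 22.6 CPM against 71.8 CPM). Levels of different genes were compared as RPKM, CPM divided by exonic length in kilobases. Atp5b, the catalytic beta subunit of ATP synthase, led with 633 ± 21.7 RPKM (mean ± SD over 12 libraries). Cox4i1, the common form of cytochrome c oxidase subunit 4, followed with 608 ± 24 RPKM. The 2 ranges overlapped, with Atp5b between 614 and 675 RPKM and Cox4i1 between 572 and 649 RPKM. Cox8a, a small structural subunit of complex IV, stood next, with group means of 442 to 461 RPKM. Atp5a1, the alpha subunit that alternates with beta in the ATP synthase head, measured 367 ± 6.3 RPKM. Ndufa4 measured 352 ± 12.8 RPKM and Cox6a1 345 ± 18.3 RPKM, ranges of 329 to 370 and 303 to 365 that do not separate. Ndufa4 is counted with complex I by its name, though its protein is found in complex IV.

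**Figure D1:**
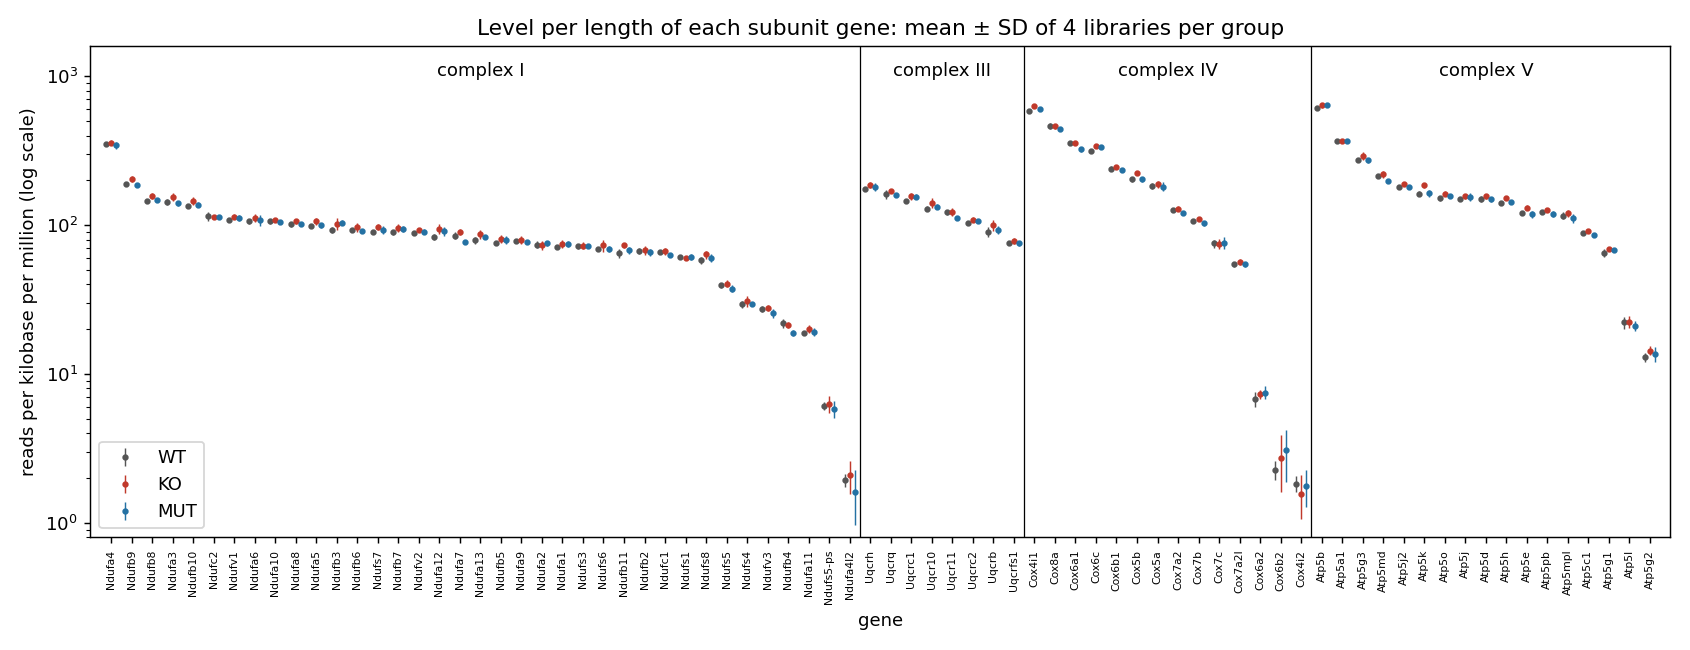
Level per length of 76 of the 77 subunit genes (RPKM, log axis) in WT, KO and MUT, as mean ± SD of 4 libraries per group, ordered within complexes I, III, IV and V. Levels run from Atp5b at 633 RPKM down to Cox4i2 at 1.72 RPKM, and the 3 groups lie close together for nearly every gene.

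Within complex I, the catalytic core held no outstanding transcript. Ndufv1, the subunit that binds NADH, measured 111 ± 5.01 RPKM, and the iron-sulfur subunits Ndufs8 and Ndufs1 were the lowest of the 7 core subunits with 60.5 ± 4.05 and 60.9 ± 1.72 RPKM, in overlapping ranges. Among the genes counted with the complex by name, Ndufa4, whose protein is found in complex IV, stood first with a WT mean of 352 RPKM. The accessory subunits Ndufb9 and Ndufb8 came next, with 188 and 145 RPKM. In complex III, Uqcrh, the hinge protein, measured 174 RPKM in WT, Uqcrq 161 RPKM, and the core protein Uqcrc1 146 RPKM. Uqcrfs1, the Rieske iron-sulfur protein that passes electrons onward, was the lowest of the 8 complex III genes in the ordering by level.

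Several complex IV subunits exist as tissue-specific isoforms, and the cortex used the general form nearly alone. Cox4i1 took 99.7% of the summed RPKM of the Cox4 pair in WT, 99.8% in KO and 99.7% in MUT. Its partner Cox4i2, a form known from lung and from cells that respond to low oxygen, was the least abundant member by level per length (15 to 32 counts a library). Cox6a1 took 98.1%, 98% and 97.7% of the Cox6a pair in WT, KO and MUT, and the heart and muscle form Cox6a2 the rest. Cox6b1 took 99.1%, 98.9% and 98.7% of its pair, beside Cox6b2, known from testis. Among the Cox7a genes, Cox7a2 held 69% ± 0.547 in WT, Cox7a2l, which acts in supercomplex assembly, 29.8% ± 0.427, and the muscle form Cox7a1 1.2% ± 0.213. The c subunit of ATP synthase, which builds the rotating ring, is made from 3 genes whose mature proteins are the same. Atp5g3 supplied 77.7% ± 1.2 of their summed RPKM in WT, 77.8% ± 0.566 in KO and 76.9% ± 0.197 in MUT. Atp5g1 supplied 18.7%, 18.4% and 19.2%, and Atp5g2 3.68%, 3.79% and 3.84%. No test was made of these isoform shares.

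The lower edge of the set held such isoforms among other genes. Cox4i2, with a mean of 1.25 CPM, lay just inside the limit of 1 CPM, and Cox7a1, with 0.836 CPM, just outside. The other 9 genes left out were Cox8b, Cox8c, Cox7b2 and Ndufb4c, Ndufs6b, Ndufa11b, Ndufb4b, Uqcrh-ps1 and Atp5c1-ps. Ndufs5-ps, a processed copy of Ndufs5, was inside by its name, with 3.03 CPM, and its reads may be split with the parent gene in a way the sources do not describe. Cox8b, the muscle form of Cox8a, held 0 to 8 counts in 11 libraries and 41 counts in KO replicate 3, the library with the most transthyretin (Ttr, secreted by choroid plexus; 33164 counts). Cox6b2 held 60 counts in MUT replicate 1 and 48 in KO replicate 3, where Ttr gave 26536 and 33164 counts, and 20 to 30 counts in the other libraries. WT replicate 4, with 10019 Ttr counts, had 26 of Cox6b2 and 8 of Cox8b. The part of choroid plexus tissue in these isoform counts was not tested.

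Promoters of 62 of the 77 genes were found in RefSeq (GRCm38.p6), giving 67 windows of 300 bases, from 250 before to 50 after the start. The 3 motifs searched are known from respiratory gene promoters and were matched on both strands. The NRF1 motif (GCGCA, any base, GCGC) was present in 16 of the 67 windows, or 23.9%, against 8.81% of the windows of all tested genes and 4.6% of all 32851 windows. NRF1 is nuclear respiratory factor 1, a regulator first described on cytochrome c and respiratory subunit genes. The ETS motif CCGGAAG, bound by the factor GABP among others, was in 22.4% of the windows, against 15.2% of those of tested genes and 8.86% of all. The YY1 motif AAGATGGC was in 14.9%, against 3.86% and 2.75%. At least 1 of the 3 was in 53.7% of the subunit windows and in 24.9% of those of tested genes. A match describes letters in a window and is no measured binding.

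The NRF1 matches of Ndufb4, Uqcrc1, Cox6a1, Atp5k and Atp5o are shown with 10 bases on either side, the match in capitals. They show how the motif, on either strand, recurs across complexes I, III, IV and V. Each of these genes had the smallest p or the highest or lowest fold change of its complex in a comparison. Each window reads 5′ to 3′ on the strand of its gene. The first match of Uqcrc1 and the match of Atp5o hold the motif on the opposite strand, so their capitals read GCGC, any base, TGCGC. Ndufb4 carried 3, starting 191, 79 and 22 bases before the start (chr16:37654540-37654569, chr16:37654428-37654457 and chr16:37654371-37654400, minus strand). Uqcrc1 carried 2, at 5 and 30 bases after it (chr9:108936643-108936672 and chr9:108936668-108936697, plus strand). Cox6a1 carried 2, at 162 and 117 bases before it (chr5:115349101-115349130 and chr5:115349056-115349085, minus strand). Atp5k had its motif 50 bases before the start (chr5:108434430-108434459, minus strand) and Atp5o 9 bases after it (chr16:91931602-91931631, minus strand).
Ndufb4: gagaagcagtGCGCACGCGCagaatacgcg
Ndufb4: ccttgtgcgcGCGCAGGCGCacttcctgag
Ndufb4: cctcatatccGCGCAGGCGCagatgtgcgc
Uqcrc1: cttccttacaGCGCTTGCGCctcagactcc
Uqcrc1: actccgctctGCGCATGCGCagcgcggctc
Cox6a1: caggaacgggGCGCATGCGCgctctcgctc
Cox6a1: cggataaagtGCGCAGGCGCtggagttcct
Atp5k: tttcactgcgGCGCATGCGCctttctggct
Atp5o: gctggcgcgcGCGCGTGCGCtctggcgcca

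In the knockout cortex, subunit transcripts lay slightly above wild type across all 4 complexes, and no single gene passed the test. The median log2 fold change of KO against WT was 0.077 over the 77 genes, beside 0.005 over all tested genes. It was 0.08 for complex I, 0.088 for complex III, 0.055 for complex IV and 0.062 for complex V. A fitted value above 0 was found for 71 of the 77 genes, all 8 of complex III and all 17 of complex V among them, against 51.3% of all tested genes. With edgeR's quasi-likelihood test, 0 of 77 had an adjusted p below 0.05, where 0.490% of all genes did. DESeq2 called 1, Cox4i1 (log2 fold change 0.11, DESeq2 adjusted p = 0.0261), where it called 647 of all genes, or 4.69%. With limma-voom 0 were called, against 0.340% of all genes. Without WT replicate 1, edgeR called 3, Ndufa12, Cox5b and Atp5k, and 1620 of all genes, or 10.5%. The WT libraries left, replicates 2, 3 and 4, were all from animals aged 375 days and high in striatal markers. Genotype, age and striatal tissue cannot be told apart there. With WT replicate 1 as the only WT library, which gives no spread within WT, Ndufa12 stood at 0.07 on the log2 scale, Cox5b at 0.03 and Atp5k at 0.12. An unadjusted p below 0.05 was reached by 19 subunit genes, all of them higher in KO and spread over the complexes as 8, 4, 3 and 4, against 17.6% of all genes. That count was 9 and 12 without WT replicates 2 and 4, 8 and 7 without KO replicates 1 and 2, and 29 without KO replicate 4. The 4 KO libraries lay above the 4 WT libraries without overlap in 9 subunit genes (11.7%), against 4.29% of all genes. The reverse order was found for 0, against 4.82%.

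**Figure D2:**
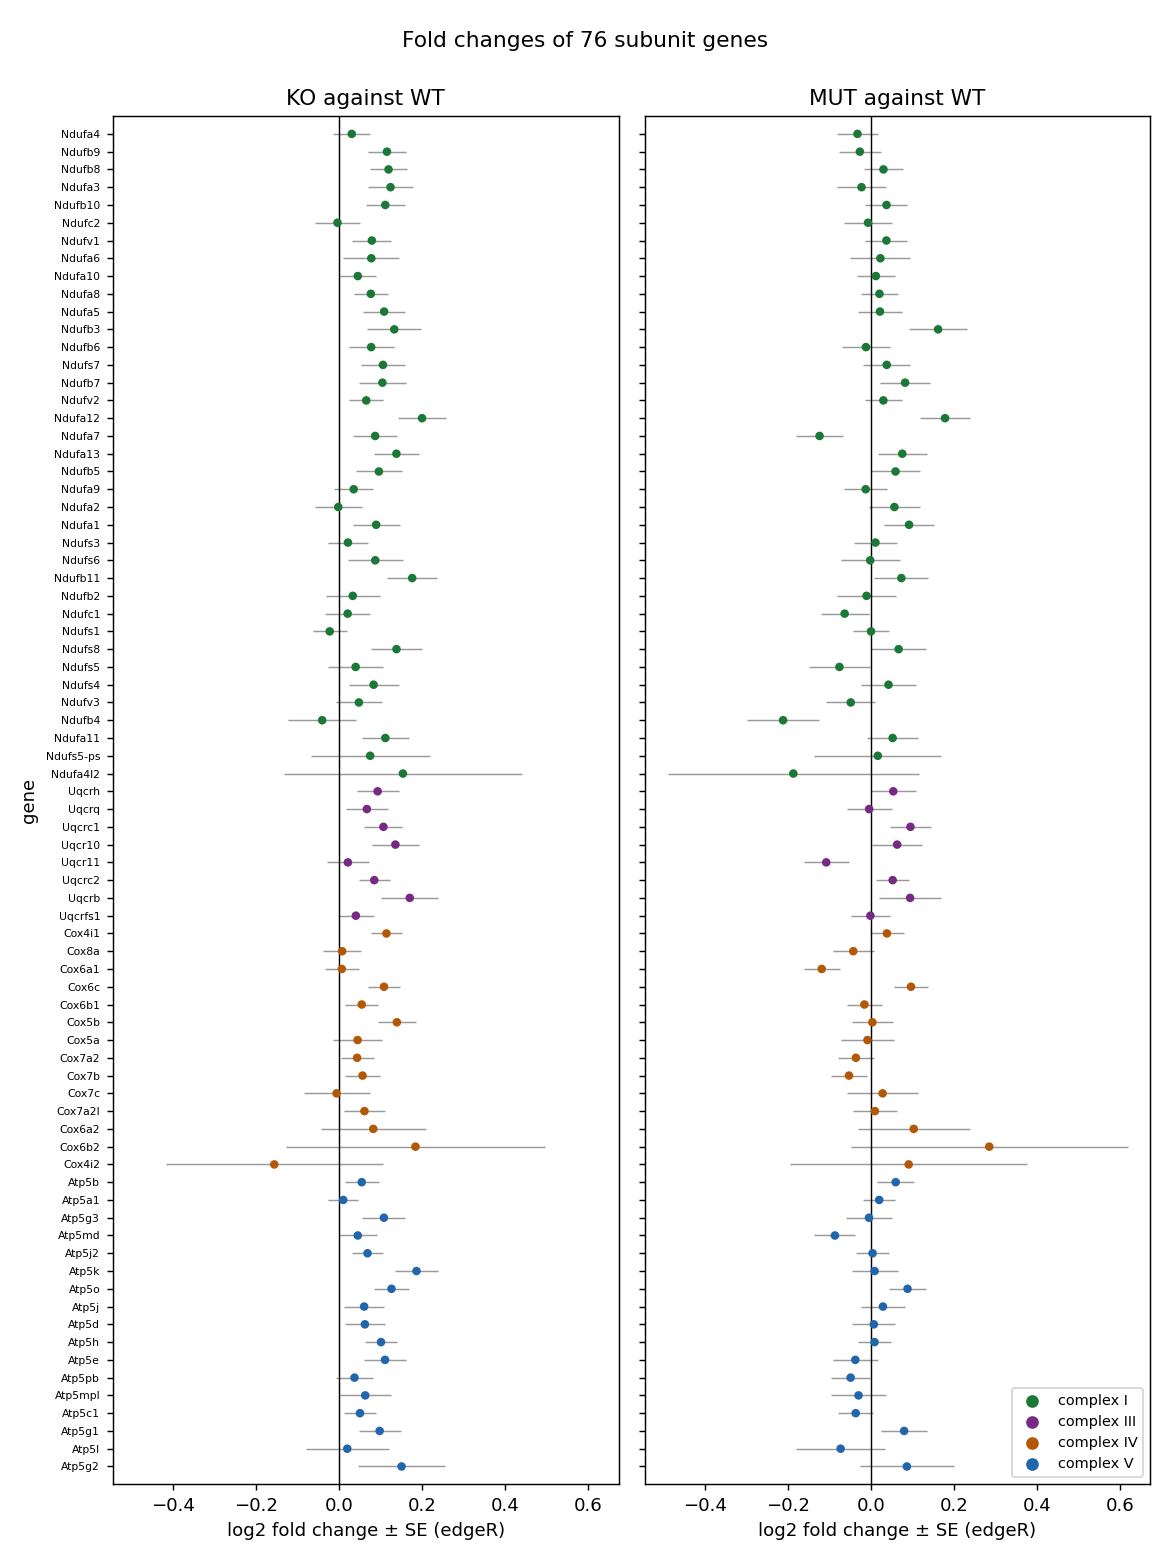
Fitted log2 fold change ± SE (edgeR, x axis) of 76 of the 77 subunit genes, KO against WT on the left and MUT against WT on the right, coloured by complex. Most points lie above 0 in KO and they spread to both sides in MUT; none passed an adjusted p of 0.05. The 2 panels share the WT libraries.

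Atp5k, the e subunit of ATP synthase that takes part in its dimers, had the smallest p of all members in this comparison (mm10 chromosome 5, 108433253 to 108434378, minus strand). It measured 49.1, 47.8, 48.5 and 45.5 CPM in WT replicates 1 to 4 and 55.1, 56.3, 53.1 and 52.1 CPM in KO. All KO libraries were above all WT libraries. The log2 fold change was 0.19 (SE 0.05, edgeR adjusted p = 0.0996), which misses the threshold. In complex V, 3 further genes had an unadjusted p below 0.05. Atp5o, the stalk subunit known for oligomycin sensitivity, measured 111.4 to 122.7 CPM in WT and 120.1 to 130.2 CPM in KO, with overlapping groups. Atp5h, the stator subunit d, measured 83.1, 80.4, 81.3 and 79.4 CPM in WT and 90.5, 85.6, 86.1 and 86.9 CPM in KO, with no overlap. Atp5e, a small central stalk subunit, measured 48.8 to 50.8 CPM in WT and 51.1 to 56.4 CPM in KO, with no overlap. Atp5a1 showed the smallest difference of the complex, 0.0092 on the log2 scale, with a 95% interval of -0.07 to 0.09.

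Ndufa12, an accessory complex I subunit, had the largest fitted difference of its complex. It measured 47.5, 43.9, 47.5 and 48.4 CPM in WT and 55.5, 56.8, 49.8 and 49.5 CPM in KO. KO replicates 1 and 2 stood well above the rest and replicates 3 and 4 just above the highest WT library. Its log2 fold change was 0.20 (SE 0.06, edgeR adjusted p = 0.107). The core subunits varied less, with 6 of 7 fitted values above 0 and a median of 0.065. Ndufs8 was their highest, at 0.14 (SE 0.06, adjusted p = 0.276), and Ndufs1, the largest subunit of the electron-input arm, their lowest, at -0.02 (SE 0.04). Ndufb4 had the lowest value in complex I, with 9.37 to 10.8 CPM in WT and 9.07 to 9.98 CPM in KO, which overlap (95% interval of the log2 fold change -0.22 to 0.13).

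Complex III had 4 of its 8 genes at an unadjusted p below 0.05, Uqcrb, Uqcr10, Uqcrc1 and Uqcrc2. Uqcrb, a subunit named for ubiquinone binding, showed the largest difference, 0.17 (SE 0.07, adjusted p = 0.229). Its WT libraries measured 41.3, 44.3, 46.1 and 49.3 CPM and its KO libraries 50.3, 55.8, 46.9 and 47.8 CPM, so the groups overlapped. Uqcrc1, with 239.4 to 243.5 CPM in WT, 247.2 to 278.7 CPM in KO and 247.8 to 269.4 CPM in MUT, lay above wild type in every library of both null groups. KO differed from WT by 0.11 on the log2 scale (SE 0.05, edgeR adjusted p = 0.254). For MUT the value was 0.09 (SE 0.05, adjusted p = 0.51). Those 2 comparisons share the WT libraries.

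In complex IV, Cox5b, which sits on the matrix side of cytochrome c oxidase, had the smallest p. It measured 122, 111.7, 113.9 and 113.8 CPM in WT and 132.3, 127.1, 125.8 and 122.8 CPM in KO. WT replicate 1 came close to the lowest KO library and the groups did not overlap. The log2 fold change was 0.14 (SE 0.05, adjusted p = 0.148). Cox4i1 measured 399.4, 388.1, 405.6 and 398.1 CPM in WT and 429, 440.9, 434.8 and 418.9 CPM in KO, again apart. Its log2 fold change was 0.11 (SE 0.04, edgeR adjusted p = 0.151). Cox6c, a small subunit in the membrane part, measured 154.4 to 164 CPM in WT and 164.4 to 176.9 CPM in KO. Cox6a1 and Cox8a were near 0, with values of 0.0058 and 0.0066 on the log2 scale and SEs of 0.04 and 0.05. The widest fitted values belonged to the scarce isoforms, 0.18 for Cox6b2 (95% interval -0.49 to 0.86; -0.05 without KO replicate 3) and -0.16 for Cox4i2 (-0.72 to 0.41). Without KO replicates 1, 2 and 3 in turn, Cox4i2 stood at -0.09, -0.41 and -0.08.

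**Figure D3:**
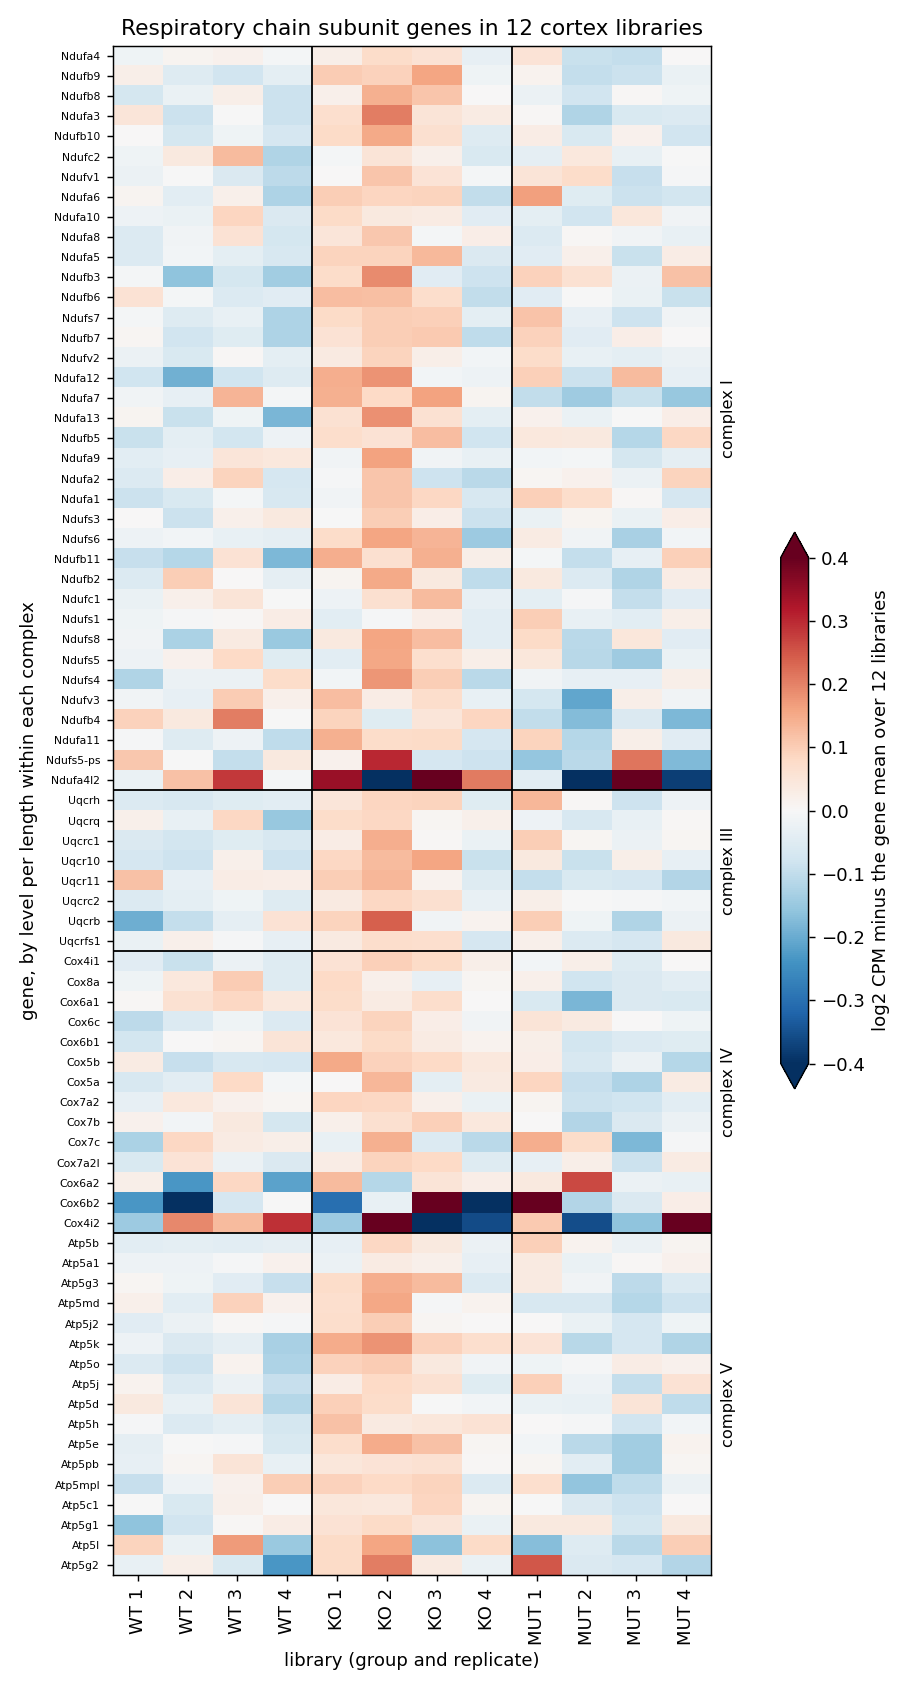
Log2 CPM of 76 of the 77 subunit genes minus its mean over the 12 libraries (colour, limited to ±0.4), by library (columns) and by complex (rows, ordered by level per length). KO replicates 1, 2 and 3 are above the mean for most genes, KO replicate 4 is not, and MUT replicate 1 is above the other MUT libraries.

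The libraries of a group were not alike. Averaged over the 77 genes, the centred log2 CPM was 0.053, 0.098, 0.059 and -0.032 in KO replicates 1 to 4 and -0.03, -0.035, 0.017 and -0.046 in WT. KO replicate 2 was the highest of all libraries, and KO replicate 4 lay within the WT range. The MUT libraries gave 0.032, -0.057, -0.043 and -0.017. With only WT replicate 1 kept in its group, so that no animal was 375 days old, the KO median was 0.066 and 69 of 77 values were above 0. With the striatal marker level as a term it was 0.071. It was 0.06 without the 3 libraries high in choroid plexus markers. Within libraries labelled female it was 0.048 (2 KO against 1 WT). Within those labelled male it was 0.102 (2 KO against 3 WT), and 3 subunit genes were called, beside 1163 of all genes, or 7.36%. The WT libraries labelled male, replicates 2, 3 and 4, were those aged 375 days and high in striatal markers. Genotype, age and striatal tissue cannot be told apart in that subset. Oligodendrocyte markers also moved with the comparison: the 6 genes summed to 2900 to 4190 CPM in WT and 4140 to 5090 CPM in KO, none at 0. Their part in the subunit values was not tested.

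Gene length moved with the same differences. The subunit genes are short, with a median exonic length of 647 bases against 2871 for all tested genes, and 58 of the 77 were under 1 kb. Among all 1162 tested genes under 1 kb, the median log2 fold change of KO against WT was 0.09 and 72.2% of values were above 0. The 58 subunit genes in that class had a median of 0.086. Their KO libraries were apart above WT in 7 cases, beside 10.3% of all genes of the class. From 1 to 2 kb the medians were 0.051 for all 3370 genes and 0.055 for 16 subunit genes. Genes over 4 kb had a median of -0.049 and no subunit gene among them. With a smooth trend on length removed from each library, the median of the subunit genes was -0.001, with 38 values above 0 and 39 below. Atp5k then had a log2 fold change of 0.07 (adjusted p = 0.56), Ndufa12 0.11 (0.427) and Cox4i1 0.03 (0.822). In both length classes the median of the subunit genes was close to that of all genes.

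**Figure D4:**
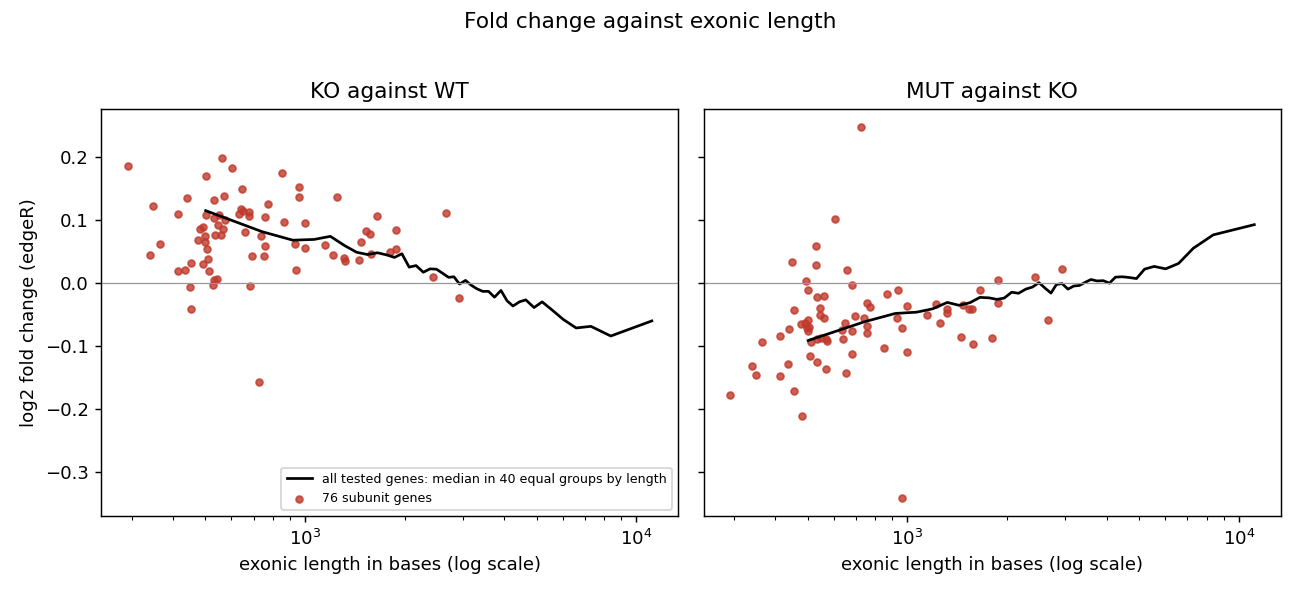
Fitted log2 fold change (y axis) against exonic length (x axis, log scale) for 76 of the 77 subunit genes (points), with the median of all tested genes in 40 equal groups by length (line), for KO against WT and MUT against KO. The line falls with length in the left panel and climbs in the right one, and most points lie around its short end.

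In the humanized mutant cortex the subunit genes showed no common offset from wild type. The median log2 fold change of MUT against WT was 0.011, beside 0.004 over all genes, and 46 of 77 values were above 0, against 51.0% of all genes. DESeq2 called 0 subunit genes and 49 of all genes. Of the members named for this comparison, it gave no adjusted p to Ndufa12, Ndufb4, Ndufa7, Uqcr11 and Cox6b2, so these could not be called by it. Members not named here were not checked for this, and others may lack an adjusted p too. Limma-voom also called 0. With edgeR 0 of 77 passed the adjusted p of 0.05, against 0.0131% of all genes. An unadjusted p below 0.05 was reached by 6, against 10.9% of all genes: Ndufa12, Ndufb3 and Cox6c were higher and Ndufa7, Ndufb4 and Cox6a1 lower. That count was 3, 2 and 3 without MUT replicates 1, 2 and 4. The MUT libraries lay wholly above WT in 4 genes (5.19%; Atp5b, Cox6c, Uqcrc1 and Uqcrc2), against 3.37% of all genes. They lay wholly below in 5 (6.49%), against 3.72%. No test was made of these counts. Without WT replicate 1, 1 subunit gene was called, Ndufa12 (edgeR adjusted p = 0.0404), beside 1030 of all genes, or 6.65%. All WT libraries left were from animals aged 375 days and high in striatal markers. Genotype, age and striatal tissue cannot be told apart there. With WT replicate 1 as the only WT library, Ndufa12 stood at 0.07 on the log2 scale.

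Cox6a1, a regulatory subunit of complex IV, gave the smallest p of its complex in the mutant (mm10 chromosome 5, 115345654 to 115348955, minus strand). It measured 183.9, 191.4, 194.3 and 188.9 CPM in WT, 193, 187.6, 192.5 and 183.5 CPM in KO, and 175.7, 161.7, 176.2 and 175.9 CPM in MUT. WT and KO shared a range and every MUT library was under it, replicate 2 by the most. The log2 fold change was -0.12 against WT (SE 0.04, edgeR adjusted p = 0.409) and -0.12 against KO (SE 0.04, adjusted p = 0.734). With the length trend removed these were -0.14 and -0.05.

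Ndufa7, an accessory subunit of complex I, had the smallest p of all members in MUT against KO (mm10 chromosome 17, 33824614 to 33838313, plus strand). It measured 40, 39.5, 44.4 and 40.2 CPM in WT, 44.6, 42.7, 45.2 and 40.7 CPM in KO, and 37.7, 36.6, 38 and 36.4 CPM in MUT. All MUT libraries were under all others. The log2 fold change was -0.21 against KO (SE 0.05, unadjusted p = 0.00155, edgeR adjusted p = 0.717) and -0.12 against WT (SE 0.06, adjusted p = 0.452). Ndufb4, also of complex I, measured 10, 9.63, 10.8 and 9.37 CPM in WT, 9.98, 9.07, 9.7 and 9.94 CPM in KO and 8.75, 8.31, 9 and 8.27 CPM in MUT. Its log2 fold change against WT was -0.21 (SE 0.09, adjusted p = 0.432). Uqcr11, a small complex III subunit, measured 50.5 to 56.1 CPM in WT, 49.9 to 56.7 CPM in KO and 47.7 to 49.6 CPM in MUT. Atp5md, a small subunit linked to ATP synthase dimers, measured 69.7 to 76.5 CPM in WT, 71.6 to 79.9 CPM in KO and 66.3 to 68.7 CPM in MUT. With Cox6a1, these were the 5 genes whose MUT libraries lay under every WT and every KO library, or 6.49% of the subunit genes, against 0.209% of all genes. All 5 are under 1 kb, from 341 bases (Atp5md) to 533 bases (Cox6a1). Of all tested genes under 1 kb, MUT lay wholly below WT in 3.01% and wholly below KO in 5.59%. The share below both groups was not computed within that length class.

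**Figure D5:**
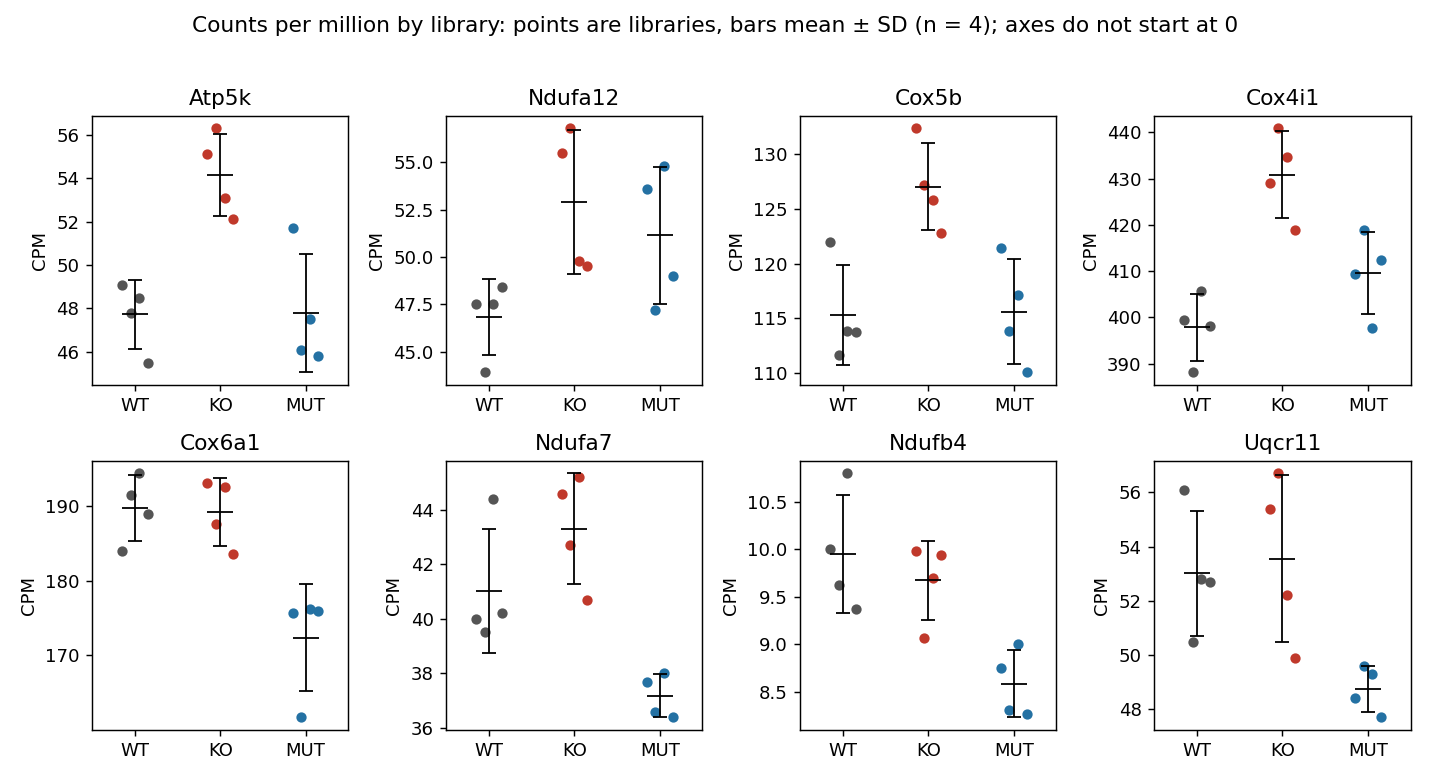
CPM of 8 subunit genes by library (points) with mean ± SD of 4 libraries per group; the axes do not start at 0. In the upper row all KO libraries are above WT; in the lower row, Cox6a1, Ndufa7, Ndufb4 and Uqcr11, all MUT libraries are below both other groups.

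Other members were higher in the mutant than in wild type. Ndufa12 measured 53.6, 47.2, 54.8 and 49 CPM in MUT, where replicate 2 fell inside the WT range. Its log2 fold change was 0.18 (SE 0.06, edgeR adjusted p = 0.397), near its KO value of 0.20, and the MUT and KO libraries overlapped (95% interval of their difference -0.15 to 0.10). Cox6c measured 172.3, 170.5, 166.2 and 164.2 CPM in MUT against at most 164 CPM in WT. Atp5b, the most abundant member, lay between 1153.7 and 1158.9 CPM in WT, between 1161.7 and 1259.6 CPM in KO and between 1170.8 and 1269.1 CPM in MUT. Its log2 fold changes were 0.05 and 0.06 (SE 0.04 each, adjusted p = 0.534 and 0.648). The KO value was 0.02 without KO replicate 2, and the MUT value 0.04 without MUT replicate 1. The SD of Atp5b in WT was 2.49 CPM, against 46.1 CPM in KO and 42 CPM in MUT. Atp5o was the highest complex V gene in the mutant, at 0.09 (SE 0.04, adjusted p = 0.501).

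Set against KO, the mutant libraries were lower for most subunit genes. The median log2 fold change of MUT against KO was -0.062, beside -0.004 over all genes, and 10 of 77 values were above 0, against 48.2% of all genes. The median was -0.035 without MUT replicate 3, with 24 values above 0, and -0.093 without KO replicate 4, with 4 above 0. Markers of other cells moved with this comparison. Scaled to library size alone, the 6 astrocyte genes summed to 3130 to 3430 CPM in KO and 3440 to 3590 CPM in MUT. With TMM scaling their mean centred log2 CPM overlapped, at -0.102 to 0.085 in KO and 0.037 to 0.204 in MUT. The 6 oligodendrocyte genes summed to 4140 to 5090 CPM in KO and 3600 to 4400 CPM in MUT. No gene of either list was at 0. The part of these cells in the subunit values was not tested. With edgeR, DESeq2 and limma-voom 0 of 77 were called, against 0.00654% of all genes by edgeR and 15 genes by DESeq2. An unadjusted p below 0.05 was reached by 12, all lower in MUT, against 5.67% of all genes, and by 23 without KO replicate 4. Of those 12, 5 belong to complex V: Atp5k, Atp5e, Atp5md, Atp5h and Atp5c1. The MUT libraries were wholly below KO in 13 genes (16.9%), against 1.85% of all genes, and wholly above in 0, against 3.37%. Atp5k, 1 of the 13, measured 51.7, 46.1, 47.5 and 45.8 CPM in MUT and at least 52.1 CPM in KO. Its log2 fold change was -0.18 (SE 0.05, edgeR adjusted p = 0.725). Its MUT and WT values overlapped. Cox5b, at 121.4, 113.9, 117.1 and 110.1 CPM in MUT, gave the same order.

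Length moved with this comparison too. All tested genes under 1 kb had a median of -0.067 in MUT against KO and the 58 subunit genes among them -0.071. Within that class the MUT libraries were wholly below KO in 11 of 58 subunit genes and in 5.59% of all genes. With the length trend removed the median of the 77 was -0.006, with 35 values above 0. Ndufa7 then stood at -0.14 and Atp5k at -0.10. The difference also varied with the libraries used: it was -0.02 within libraries labelled female (3 MUT against 2 KO) and -0.132 within those labelled male, where MUT had only replicate 3.

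Other genes of the same machinery, from lists chosen by function, gave few calls. Complex II, the succinate dehydrogenase that feeds electrons in beside complex I, had 4 of 4 values above 0 in KO with a median of 0.028, and 0 called in any comparison. The 15 tested complex I assembly factors had a KO median of 0.083, with 12 above 0 and 0 called. Of 31 tested assembly factors of complexes III, IV and V, 17 were above 0 in KO, with a median of 0.022 and 0 called. Coa3, an assembly factor that stabilises newly made Cox1 and lies on chromosome 11 as Grn does, came nearest. KO differed from WT by -0.27 on the log2 scale (SE 0.06, edgeR adjusted p = 0.0606). For MUT the value was -0.41 (SE 0.06, adjusted p = 0.0722). Timm44, which anchors the import motor, stood at 0.23 in KO (SE 0.05, adjusted p = 0.0775), in a list of 20 import genes with a median of 0.057 and 0 called.

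The 14 nuclear regulators, among them Nrf1, Gabpa, Tfam and Ppargc1a, had medians of -0.064 in KO and -0.001 in MUT, and 0 were called. These regulators are longer, with a median exonic length of 3709 bases against 647 for the subunit genes. Medians of the other lists were not computed with the length trend removed. The 16 citric acid cycle genes had medians of -0.012 and -0.019, and the 16 glycolytic genes 0.013 and -0.019, with 0 called in either. The 11 carriers and shuttle genes had a KO median of 0.056 and the 5 electron carriers 0.045, with 0 called. The 78 mitochondrial ribosomal protein genes gave 0.059 in KO, 63 of them above 0, and 0 were called. The 81 tested cytosolic ribosomal protein genes, which are short too (median 703 bases), gave 0.178 in KO. All 81 were above 0, beside 72.2% of all tested genes under 1 kb. With edgeR 4 were called, all higher, against 0.490% of all genes. Rps4x, Rps9 and Rpl37 were among them, and the 4 values were 0.23 to 0.28 on the log2 scale (edgeR adjusted p between 0.044 and 0.0484). Mitochondrially encoded subunits made up at most 0.00147% of the counts of a library. With 6 of 13 tested and 0 called, no comparison of nuclear with mitochondrial subunits was made.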

How the data were processed

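Directional libraries were made from cortex RNA, per the labels' protocols. Raw read counts per gene, with exon coordinates and summed exonic length, were deposited by the authors in 1 table. The submitters' processing notes name mm10, R 4.1.2 and DESeq2 1.34.0; for the aligner, counter and strand setting, nothing is stated in those notes or labels, so reads of overlapping and antisense genes, and of near-identical copies, are uncertain. Genes were kept with edgeR's filterByExpr (minimum count 10, minimum total 15), which left 15298. After TMM scaling, 1 robust quasi-likelihood model of all 12 libraries took group and labelled sex as terms, in edgeR 4.0.16 under R 4.3.3 (8 residual degrees of freedom, common biological coefficient of variation 0.101). P-values were adjusted over all tested genes by Benjamini-Hochberg, with a threshold of 0.05. Library size alone was used for the limit of 1 CPM, for the mean CPM given beside that limit and for the sums of marker genes. All other CPM and RPKM values use TMM-scaled library sizes, and RPKM divides by the table's exonic length. The length trend is a natural spline (4 degrees of freedom) on log2 length, fitted per library and used as an offset.

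Nothing in the labels says that every library is from its own animal; p-values therefore reflect spread among libraries, which may be technical. Among 66 pairs of libraries, chi-square divided by its degrees of freedom was at least 3.62, so no pair agreed within sampling noise. Named members are, per complex, those with the smallest p in each comparison, the highest and lowest fold changes of KO and MUT, the 3 highest levels per length, and the isoform families. Genes whose libraries do not overlap between groups, and Ndufs1, Ndufv1 and Ndufs8, were named after their values were seen, as were the other genes with an unadjusted p below 0.05. The members and lists were chosen with earlier results of these data known. Alternatives were RLE factors, library size alone, other filters, DESeq2 1.42.0, limma-voom (limma 3.58.1), other covariates, library subsets and leaving out each library. Leaving out robust estimation, and length together with striatal level, were added after seeing the data. Promoter windows came from RefSeq (GRCm38.p6). The values of 1 member and of 1 gene of another list are not reported individually here; both stay in the counts and medians.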

Additional observations from a re-analysis of the deposited data

Results flagged for a closer look

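Among 129 sets of 4 library values checked (38 named members, and the members' mean level as a whole and by complex), 5 held a library whose distance from the others exceeded Dixon's 95% limit; chance gives about 1 in 20. Cox6b2, the testis-type complex IV isoform, measured 2.9 CPM in MUT replicate 1 and 1.43 to 1.58 CPM in the other MUT libraries. Atp5g2, of the c subunit of ATP synthase, measured 10.4 CPM in MUT replicate 1 and 8.08 to 8.41 CPM in the others. MUT replicate 1 is 1 of the 3 libraries high in choroid plexus markers; the part of that tissue was not tested. Cox6a1 measured 162 CPM in MUT replicate 2 and 176 CPM in each of the others. Atp5g1 measured 55.8 CPM in MUT replicate 3 and 60.1 CPM in the others. Ndufa7 measured 44.4 CPM in WT replicate 3 and 39.5 to 40.2 CPM in the other WT libraries.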

How the results depend on the processing

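Over 30 alternative settings the KO median of the subunit genes was above 0 in 28. It was -0.001 with the length trend removed and -0.009 with that and the striatal level together, an alternative added later. The number called in KO was 1 with DESeq2 (Cox4i1; 647 of all genes) and 3 within libraries labelled male (1163 of all genes), where 75 of all genes were called with every library. Leaving out each library in turn gave 0 to 3 in KO. The 3 were Ndufa12, Cox5b and Atp5k without WT replicate 1 (1620 of all genes). In MUT against WT it gave 0 to 1, Ndufa12 (edgeR adjusted p = 0.0404), also without WT replicate 1 (1030 of all genes). Without WT replicate 1, and within libraries labelled male, every WT library was from an animal aged 375 days and high in striatal markers. The median of MUT against WT was -0.036 within libraries labelled male. That of MUT against KO was -0.006 with the length trend removed, with and without the striatal level, -0.02 within libraries labelled female, -0.132 within those labelled male, and -0.093 to -0.035 with single libraries left out.

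Among single genes, the KO value of Uqcr11 turned to -0.1343 with age as a term, -0.0204 with the striatal level, -0.0801 with the length trend removed, -0.12 with both of these, -0.1118 without the WT animals aged 375 days and -0.1349 within libraries labelled female. Leaving out libraries moved it from -0.012 to 0.0868, Ndufb4 from -0.0669 to 0.0011, Cox6b2 from -0.0525 (without KO replicate 3) to 0.3233 and Atp5a1 from -0.0044 to 0.0214. Ndufb4 was 0.0014 with age as a term. With length and striatal level together, Cox5b was 0, Atp5a1 -0.0129 and Atp5h -0.0152. In MUT against KO, removing the length trend gave 1e-04 for Uqcrq and 0.0077 for Atp5j2, and 7e-04 and 0.0077 with the striatal level added. Apart from what the construction of an alternative shows, the cause was not tested. With the replicate number as a replicate block, 0 members were called in any comparison and the medians were 0.073, 0.009 and -0.062. The numbers did not pair the libraries: 1 of 12 same-number correlations was over 0.1 (-0.377 to 0.289), and 2 of 12 pairs were closest within their own number. With the block, 2 genes of all were called in KO, against 75 without it. A gene near 1 CPM, such as Cox4i2, rests on 15 to 32 counts, which limits its precision.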
